A study of Mus musculus with 28 samples.

Results

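The loops described here are the 24031 chromatin loops, of 63732 in the deposited loop table, that the authors' label places at 60 h of differentiation and not in growth medium. They were taken by that label alone (called 60 h only loops below), and 32587 loops carried the growth medium label (GM only) and 7114 carried both. Each loop joins 2 anchors, and each anchor is a 25 kb stretch of the mouse genome (build mm10). The cells were wild-type C2C12, an immortalised mouse myoblast line. GM cells grew in DMEM with 20% fetal bovine serum, and differentiating cells were moved near confluence to DMEM with 3% horse serum (DM) for 12, 24, 48, 60 or 96 h. Hi-C covered 3 libraries in GM and 3 at 60 h, ATAC-seq covered 2 and 2, and RNA-seq covered 3 libraries at each of the 6 stages. The replicates are labelled biological with no separate cultures described, and the p-values thus cover only how far these libraries spread, which could be technical. The cells are 1 line, and a dish at 60 h can hold fused and unfused cells.

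In Hi-C, DNA that lies close together in the nucleus is cross-linked, cut (here with MboI), ligated and sequenced, and a loop is a pair of distant bins that ligate more often than their surroundings. Many loops form when the cohesin ring extrudes a DNA strand until it meets CTCF bound at an anchor, and others join promoters to enhancers. In differentiating muscle cells the MyoD family of basic helix-loop-helix factors binds E-boxes, and MEF2 and TEAD factors bind beside them at muscle genes. Topologically associating domains (TADs) are stretches whose parts contact each other more than their neighbours, and most loops of short span lie within 1 domain. ATAC-seq marks open chromatin, where such factors can bind.

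The 5 promoters below are shown because each lies in an anchor of a 60 h only loop, its gene rose at 60 h, and the stretch overlapped an ATAC-seq peak at 60 h. They were chosen after their peaks and matches were seen. Each is the 250 bases before the RefSeq start site on GRCm38.p6, read 5′ to 3′ on the gene's strand, and so upstream of the transcript. Capitals mark matches on either strand to the E-box CAGCTG or to the TEAD motif GGAATG, which is CATTCC on the other strand.
Cacna1s, chr1:136052561-136052810, plus strand: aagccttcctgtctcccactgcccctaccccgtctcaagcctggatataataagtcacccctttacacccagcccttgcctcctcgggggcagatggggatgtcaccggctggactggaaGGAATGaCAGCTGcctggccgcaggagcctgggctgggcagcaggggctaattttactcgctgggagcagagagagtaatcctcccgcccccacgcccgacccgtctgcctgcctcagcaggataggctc
Mybpc1, chr10:88605153-88605402, minus strand: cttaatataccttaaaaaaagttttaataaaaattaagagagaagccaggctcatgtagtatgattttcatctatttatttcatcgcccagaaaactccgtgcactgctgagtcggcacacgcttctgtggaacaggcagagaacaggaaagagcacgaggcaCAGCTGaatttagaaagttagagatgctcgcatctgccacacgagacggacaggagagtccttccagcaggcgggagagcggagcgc
Myl1, chr1:66945057-66945306, minus strand: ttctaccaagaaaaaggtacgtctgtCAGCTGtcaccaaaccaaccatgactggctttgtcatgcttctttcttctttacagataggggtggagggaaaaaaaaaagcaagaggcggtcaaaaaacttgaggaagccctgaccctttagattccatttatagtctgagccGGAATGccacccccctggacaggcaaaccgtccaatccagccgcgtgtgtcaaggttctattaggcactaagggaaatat
Acta1, chr8:123894776-123895025, minus strand: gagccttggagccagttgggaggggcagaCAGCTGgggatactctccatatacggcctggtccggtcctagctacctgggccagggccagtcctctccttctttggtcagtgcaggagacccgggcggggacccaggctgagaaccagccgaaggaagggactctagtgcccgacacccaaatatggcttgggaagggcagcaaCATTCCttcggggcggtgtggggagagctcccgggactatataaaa
Casq2, chr3:102086165-102086414, plus strand: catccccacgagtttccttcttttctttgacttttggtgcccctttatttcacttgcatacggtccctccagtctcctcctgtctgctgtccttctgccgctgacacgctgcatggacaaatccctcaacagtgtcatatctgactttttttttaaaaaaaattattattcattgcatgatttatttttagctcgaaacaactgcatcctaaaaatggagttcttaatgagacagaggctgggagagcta
The first 3 and the last overlapped a peak of the 60 h list and none of the GM list, with folds over local background in the authors' list of 3.57 for Cacna1s, 2.48 for Mybpc1, 3.03 for Myl1 and 3.1 for Casq2. Acta1 had a peak in both lists. The Cacna1s stretch carried the E-box at base -123 and the TEAD match at base -130, counted back from the start site, and Myl1 carried them at -224 and -80. In Acta1 they lay at -221 and -46, Mybpc1 had an E-box at -87, and the Casq2 stretch held neither motif. Of all 32619 RefSeq promoters of this length, 13.1% held the E-box and 12.6% the TEAD motif. Among tested genes in anchors of 60 h only loops, the E-box stood in 21.3% of the 541 promoters whose gene was at least 2-fold higher at 60 h and in 12.3% of the 495 whose gene was at least 2-fold lower. Outside these anchors the shares were 20.9% and 11.8%. The E-box share was 12.0% over all 6350 promoters of tested genes in anchors and 12.5% over promoters of all tested genes. The E-box was thus more frequent at genes that rose, in both sets, while genes that fell stood near these shares. In anchors, other motifs differed by fewer percentage points between genes that rose and genes that fell. At genes at least 2-fold higher and lower, the TEAD motif stood in 13.5% and 10.9% of promoters. The shares were 3.70% and 4.04% for a MEF2 motif, 4.07% and 2.42% for CTCF and 6.84% and 7.68% for AP-1. Over all 6350 promoters of tested genes in anchors they were 11.1% for TEAD, 2.85% for MEF2, 4.60% for CTCF and 4.24% for AP-1. AP-1 thus stood above its share at genes that rose and at genes that fell, and CTCF stood below its share at both. A peak at 60 h and not in GM lay on 7.95% of promoters in anchors whose gene was at least 2-fold higher. Its share was 1.46% of all 6350 promoters of tested genes in anchors. Outside the anchors it lay on 8.45% of promoters of genes at least 2-fold higher. A match is a description of letters and does not show that a factor binds there.

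The loop table, the 2 peak lists and the 2 domain sets each stand for several libraries and hold no replicate values, so shares of loops and anchors are given without a test. RNA-seq depth was 24154680 to 36405121 counts per library. At 60 h the 6 myoblast and muscle markers summed to 2572 to 2697 CPM (counts scaled to library size, per 1000000) against 1032 to 1075 CPM in GM, and each of the 6 was present in all 6 libraries. Against that sum, Myf5 went down, from 70.3 to 76.0 CPM in GM to 44.3 to 46.4 CPM at 60 h. The 5 adipocyte markers summed to at most 0.332 CPM, with Cidec and Lep at 0, and the 4 endothelial markers to at most 1.08 CPM. Of the endothelial markers, Tek went from 0.183 to 0.259 CPM in GM to 0.840 to 1.04 CPM at 60 h. The 4 macrophage markers summed to at most 2.35 CPM, nearly all of it Cd68, with Adgre1 at 0. The 5 osteoblast markers summed to 12.6 to 14.8 CPM in GM and at most 6.94 CPM at 60 h, nearly all from Runx2, with Ibsp at 0 in these 6 libraries. Replicates differed most at 12 h, between 1 and 3 (chi-square over its degrees of freedom 53.2, beside 5.06 to 20.3 in every other pair), and at 24 h replicate 3 stood apart in Polr2a (47.2 CPM against 16.3 and 12.4 CPM).

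The 60 h only loops spanned 75 to 1975 kb between anchor starts, with a median of 550 kb and quartiles of 350 and 850 kb. GM only loops were longer at the median (600 kb), and loops of both labels were shorter (325 kb). Of the 60 h only loops, 13.9% spanned under 250 kb and 16.1% over 1 Mb. The same shares were 10.5% and 19.7% for GM only loops and 38.8% and 7.31% for loops of both. At every span, 60 h only loops made up a like part of the table, from 35.1% of loops under 250 kb to 39.6% of those from 250 to under 500 kb. By contrast, the part taken by loops of both labels fell from 29.0% in the shortest bin to 4.01% in the longest. A total of 635 loops had the shortest span, such as chr1:4775001-4800000 to chr1:4850001-4875000, which lay inside 1 TAD in each condition. Only 28 had the longest, such as chr1:80325001-80350000 to chr1:82300001-82325000, whose first anchor holds the start site of Cul3, a ubiquitin ligase scaffold.

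**Figure D1:**
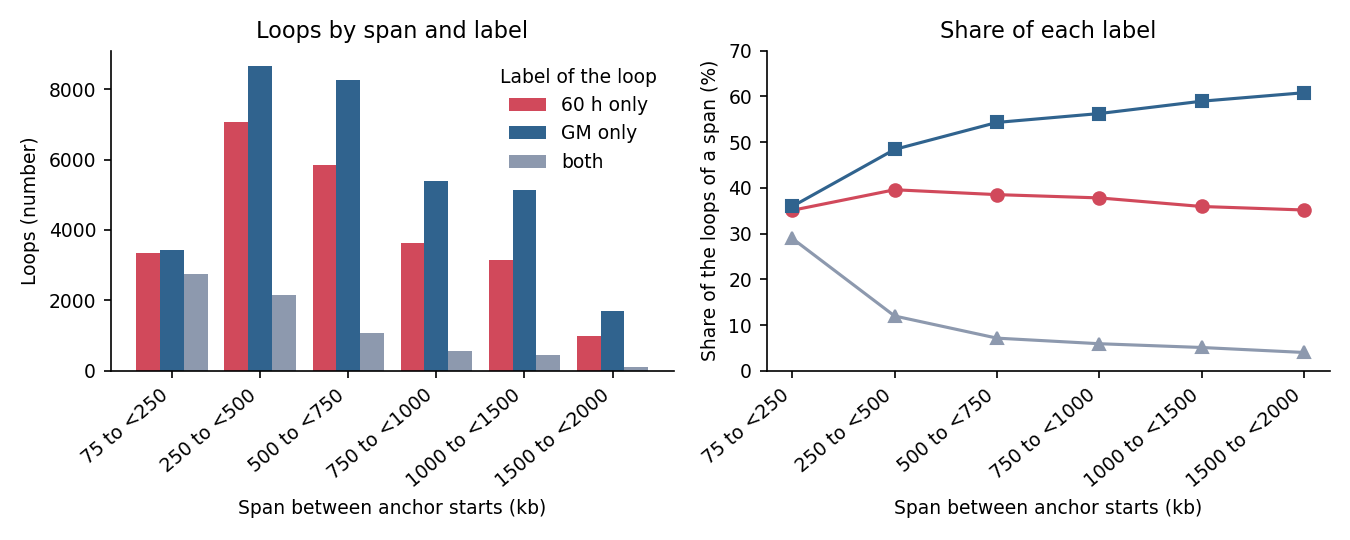
Loops by span (kb between anchor starts) and label, as numbers on the left and as a percentage of all loops of that span on the right. The 60 h only loops hold 35.1% to 39.6% of each span bin, while loops of both labels fall from 29.0% to 4.01%.

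On the autosomes, 60 h only loops made up 36.2% (chromosome 4) to 38.6% (chromosome 3) of the loops. Chromosome X stood above this range with 813 of 1912 loops (42.5%), and it held fewer 60 h only loops per megabase (4.76) than any autosome (6.84 to 12.5). The share of loops with both labels was also lowest there, 8.94% against 10.0% to 12.8%. What sets chromosome X apart was not tested.

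Most 60 h only loops used ground that GM only loops also used. The 24031 loops rested on 31833 anchors, 30.3% of the 25 kb bins of the genome. GM only loops rested on 40786 of the 105231 bins, and anchors of any loop took up 52.3% of all bins. The shares that follow are to be read beside this wide coverage, and whether they exceed it was not tested. Of these anchors, 19445 (61.1%) were also anchors of GM only loops, 6574 (20.7%) were anchors of loops of both labels, and 10856 (34.1%) were in no loop of another label. For 11007 loops (45.8%) both anchors were also in GM only loops, with other partners, and for 2018 (8.40%) neither anchor was in a loop of another label. In 8782 loops (36.5%) a loop of another label lay with both anchors within 1 anchor width, nearly always a GM only loop (8369 loops, 34.8%). For such loops the label at 60 h only can rest on a shift of 1 bin. The 15249 loops with no such neighbour had the same median span, 550 kb.

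Of the anchors, 67.5% took part in 1 of the 60 h only loops, 566 (1.78%) in 5 or more and 9 in 10 or more. The anchor in most was chr16:79175001-79200000, with 12 of these loops of 450 to 1925 kb and 6 GM only loops, and no gene start site. Next came chr3:137750001-137775000, chr5:82325001-82350000 and chr7:37325001-37350000 with 11 each. The chr5 anchor held a ribosomal protein pseudogene, and the other 2 held no start site. Their GM only loops numbered 5, 7 and 11, so these anchors were shared by many loops in both conditions. Among the anchors with 10 loops was chr12:95675001-95700000, which holds the start site of Flrt2, a cell adhesion protein that guides migrating cells.

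Open chromatin at the anchors differed little between 60 h only and GM only loops. A peak found in the 60 h list and overlapped by none in the GM list (a 60 h only peak) lay in 40.7% of the anchors of 60 h only loops, in 39.7% of those of GM only loops and in 43.3% of those of loops of both. Bins in no loop held one in 17.2% of cases. A peak shared by the lists lay in 77.9%, 75.1%, 92.7% and 30.9% of these 4 sets of bins. GM only peaks lay in 35.0% of the anchors of 60 h only loops and 34.9% of those of GM only loops. In the 10856 anchors of 60 h only loops and no other loop, 36.7% held a 60 h only peak, against 36.0% of the 19117 anchors of GM only loops and no other.

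**Figure D2:**
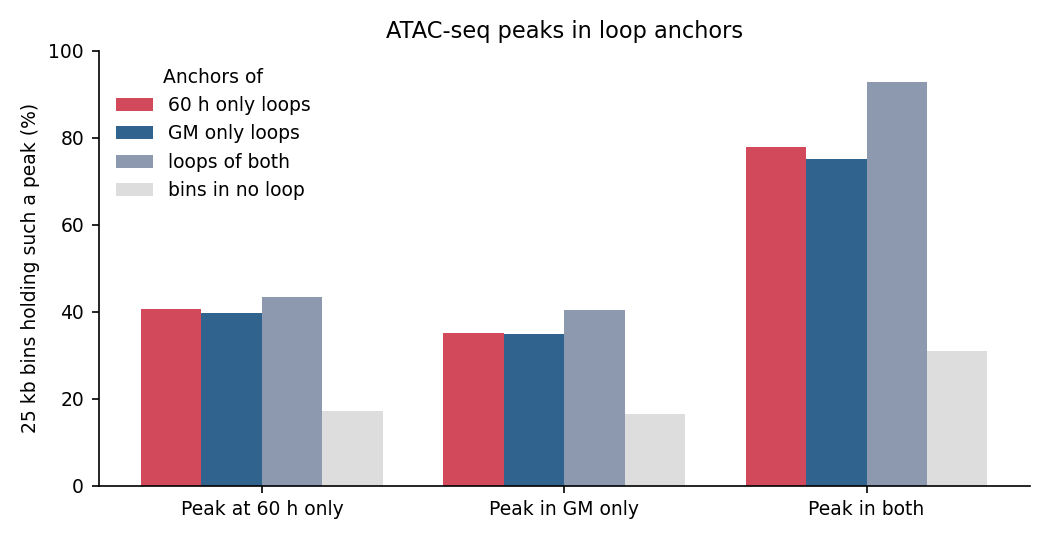
Share of 25 kb bins (%) that hold an ATAC-seq peak of 60 h only, of GM only or of both lists, for anchors of 60 h only loops, GM only loops, loops of both labels and bins in no loop. Bars for 60 h only and GM only loops are within 3 percentage points of each other in each class, such as 40.7% and 39.7% for peaks of 60 h only.

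Counted by loop, 64.1% of the 60 h only loops had a 60 h only peak in at least 1 anchor, and 18.9% had one in both. GM only loops had 63.4% and 18.5%. Shared peaks stood at both anchors of 70.3% of 60 h only loops, 67.0% of GM only loops and 89.6% of loops of both. In the peak lists themselves, 44068 of 189444 peaks at 60 h (23.3%) had no overlap in GM, and their median fold in the authors' list was 1.72, against 3.12 for peaks with an overlap.

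The 60 h only loops lay within domains more often than GM only loops. Both anchors fell inside 1 TAD of the 60 h set for 12901 loops (53.7%), against 47.1% of GM only loops and 67.8% of loops of both. The order was the same within the domains called in GM (52.5%, 46.6% and 67.3%). Shorter loops lay inside a domain more often, so loops of like span were compared. Of loops of 500 to under 750 kb, 54.6% with the 60 h only label and 49.4% with the GM only label lay inside 1 TAD of 60 h. Below 250 kb the shares were 75.4% and 76.8%, so the order did not hold at the shortest spans. A total of 929 loops (3.87%) lay inside a TAD at 60 h and in none in GM, and 633 (2.63%) the reverse. For GM only loops these shares were 3.33% and 2.84%.

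A boundary bin of the 60 h domain set overlapped 6.16% of the anchors of 60 h only loops, 6.03% of those of GM only loops and 7.27% of those of loops of both. Over all bins the share was 5.49%. Of 2417 boundary bins at 60 h and 2467 in GM, 1229 were the same bin. Boundaries called at 60 h and not in GM overlapped 2.69% of the anchors of 60 h only loops, and those called in GM and not at 60 h overlapped 2.81%. These shares were 2.62% and 2.81% for anchors of GM only loops and 2.70% and 2.82% over all bins.

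RNA-seq gave a replicated measure that the loop labels did not use. A total of 6269 tested genes had a start site in an anchor of a 60 h only loop. At 60 h against GM, 2236 of them (35.7%) were higher and 2174 (34.7%) lower at an adjusted p under 0.05 (edgeR quasi-likelihood test, Benjamini-Hochberg adjustment), beside 33.1% higher and 32.2% lower of all 15303 tested genes. The median log2 fold change was 0.01 in the anchors and 0.01 over all genes tested. Genes with no 60 h only loop at the start site were higher in 32.9% and lower in 33.8%. A share this near the background is no result about the loops. At least 2-fold changes were as near, with 8.60% higher and 8.23% lower in anchors beside 8.95% and 7.68% of all tested genes. Levels in bulk samples cannot tell fewer cells of a kind from less RNA per cell.

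Neither the number of 60 h only loops nor their being the sole loops at a gene moved these shares far. Genes whose anchor was in 1, 2, 3 and 4 or more of the loops were higher in 35.1%, 34.9%, 38.6% and 36.0%. They were lower in 35.1%, 35.4%, 31.8% and 36.0%. These groups held 3635, 1428, 466 and 289 genes, and the wider gap at 3 loops was not tested. The 1463 genes at anchors of 60 h only loops and of no other loop were higher in 34.2% and lower in 34.1%. The 1221 genes at anchors that took part in loops of all 3 labels were higher in 39.1% and lower in 34.5%. At the other times, genes in the anchors were higher and lower in 19.1% and 19.3% at 12 h (17.8% and 17.2% of all tested genes), 31.4% and 33.2% at 24 h (30.2% and 30.6%), 33.8% and 35.5% at 48 h (32.5% and 32.8%), and 37.4% and 35.8% at 96 h (34.8% and 34.1%). These comparisons share the GM libraries. At 12 h, 1200 genes in anchors were higher and 1210 lower, against 1307 and 1066 without 12 h replicate 1 and 1220 and 888 without its replicate 3.

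The share of genes called higher climbed with the number of 60 h only peaks in the gene's own anchor, with or without a 60 h only loop there. For 5818 of the genes the bin that holds the start site was known. With 0, 1, 2 and 3 or more 60 h only peaks in that anchor, 32.6%, 36.9%, 43.6% and 56.1% of genes were higher at 60 h, and 37.1%, 32.7%, 31.7% and 20.2% were lower. The same rise appeared among genes in no anchor of a 60 h only loop, 29.9%, 34.5%, 41.3% and 51.6% higher. GM only peaks went the other way, with 32.2%, 37.1%, 42.3% and 43.8% of the genes in anchors lower. By peaks at the far end of the loop, the shares stayed near those of all 6269 genes in anchors (35.7% higher and 34.7% lower). With 0, 1, 2 and 3 or more 60 h only peaks across the 60 h only loops, 34.7%, 34.5%, 37.5% and 37.7% of genes were higher. The shares lower were 34.7%, 36.5%, 34.8% and 32.3%. Far peaks were summed over all partner anchors, so this number can grow with the number of loops at a gene. The group with 3 or more peaks in its own anchor held 173 genes, and peaks and start sites that share a bin share its gene density, whose part was not tested.

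**Figure D3:**
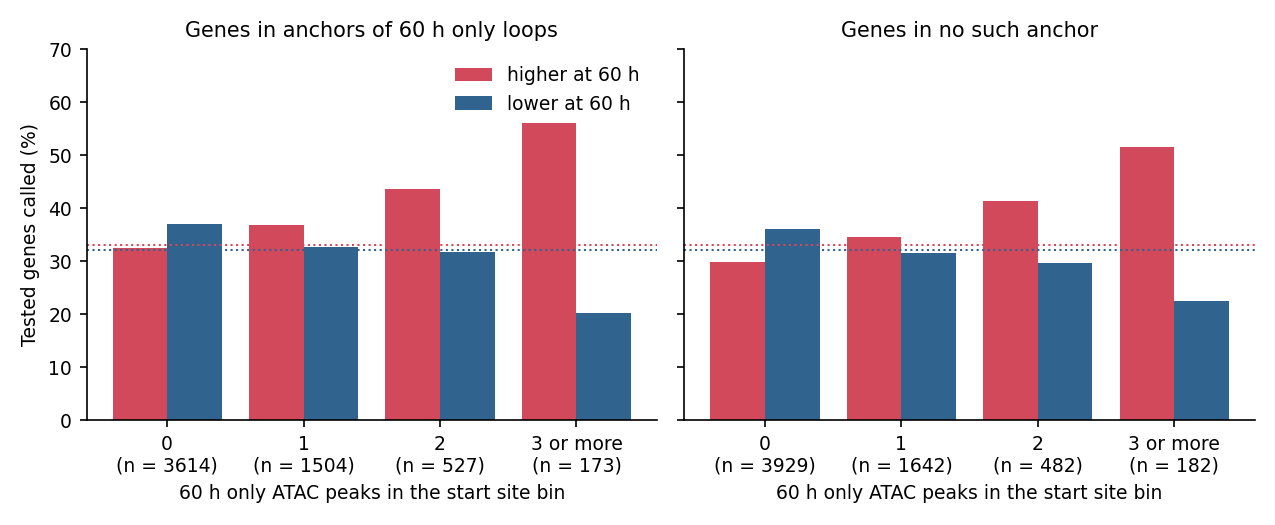
Percentage of tested genes called higher (red) or lower (blue) at 60 h against GM, by the number of 60 h only ATAC-seq peaks in the 25 kb bin of the start site, for genes in anchors of 60 h only loops (left) and in no such anchor (right); dotted lines give the shares over all tested genes. The share called higher climbs from 32.6% to 56.1% on the left and from 29.9% to 51.6% on the right.

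Genes of the contractile apparatus rose, at anchors and elsewhere. Of 53 tested genes of a sarcomere list, 24 had a start site in an anchor of a 60 h only loop, near the 47.7% of all tested genes whose place was settled, and all 24 were higher at 60 h, as were all 53 of the list. The median log2 fold change of the 24 was 4.56, or 4.24 with Myl2 set at its lower bound. Because the whole list rose, the rise of those at anchors is no mark of the loops. Acta1, the skeletal actin of the thin filament, had 12.0, 11.9 and 12.3 CPM in the GM libraries and 517, 455 and 535 CPM at 60 h, a log2 fold change of 5.38 ± 0.086 (SE; adjusted p = 1.80e-21). All 3 libraries at 60 h lay far above all 3 in GM. Values in parentheses after a gene, here and below, are log2 fold changes of 60 h over GM from edgeR, with SE after the sign ±. Its anchor, chr8:123875001-123900000, was in 2 of the 60 h only loops and in no other loop, although the longer of them had a neighbour of another label within 1 anchor width. They reached chr8:123400001-123425000 (475 kb away), which holds the start sites of Tubb3, a neuronal beta tubulin, and Mc1r, and chr8:123325001-123350000 (550 kb), which holds that of Spire2, an actin nucleator. Tubb3 (log2 fold change -0.68) and Spire2 (-0.61) fell at 60 h, opposite to Acta1.

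Actc1, the cardiac actin that is also made early in skeletal muscle, had 0.815, 1.19 and 1.26 CPM in the GM libraries and 58.0, 48.3 and 53.0 CPM at 60 h (5.59 ± 0.12, adjusted p = 6.96e-20). Its anchor, chr2:114050001-114075000, held 5 of the 60 h only peaks and none of GM only. It was joined to chr2:113525001-113550000 (525 kb) and chr2:115600001-115625000 (1550 kb), neither of which holds a start site, and the 525 kb loop had a neighbour of another label. The transcript C130080G10Rik starts in the same anchor and rose with it (4.19). Tnnc2, the calcium-binding troponin of fast muscle, had 2.71, 2.26 and 2.53 CPM in the GM libraries and 129.7, 106 and 129.8 CPM at 60 h (5.61 ± 0.098, adjusted p = 6.01e-21). Its anchor chr2:164775001-164800000 was in 2 loops, both 60 h only, of 1250 kb on one side and 1000 kb on the other. The 1250 kb loop ended at Hnf4a, a liver transcription factor gene that was not among the tested genes, and each far anchor held 2 of the 60 h only peaks.

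Myl4, the embryonic and atrial myosin light chain, had 1.30, 1.59 and 1.96 CPM in the GM libraries and 88.2, 74.6 and 96.7 CPM at 60 h (5.73 ± 0.12, adjusted p = 5.97e-20) and shared its anchor chr11:104550001-104575000 with Cdc27, a subunit of the anaphase-promoting complex, whose log2 fold change was -0.11 and was not called. Its 60 h only loops spanned 975 and 1450 kb. Myh1, a fast myosin heavy chain, had 1.52, 2.05 and 2.29 CPM in the GM libraries and 66.8, 58.8 and 65.6 CPM at 60 h (5.01 ± 0.097, adjusted p = 2.39e-20). The shorter of its 2 loops joined chr11:67200001-67225000 to chr11:67100001-67125000, only 100 kb away, where 4 of the 60 h only peaks lay and the transcript 2310065F04Rik starts, and it had a neighbour of another label. GM only loops (2) also ended at the Myh1 anchor, so loops of this gene were listed in each condition with different partners.

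**Figure D4:**
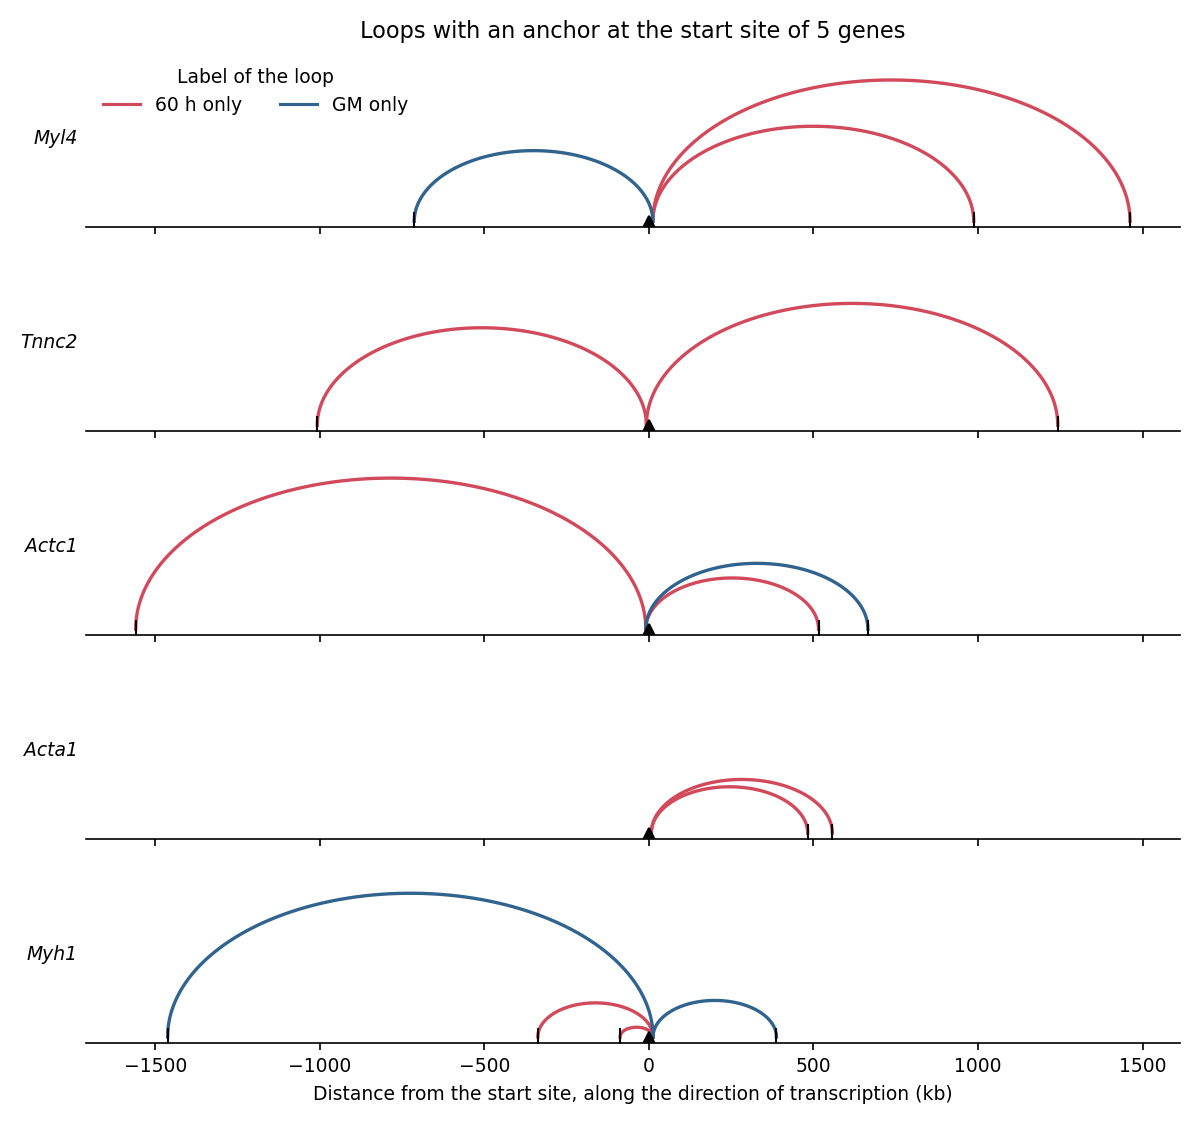
Loops that end in the start site anchor of 5 of the largest rises with 2 of the 60 h only loops there, drawn as arcs to the partner anchor (ticks) by distance in kb from the start site (triangle). At these exact anchors Acta1 and Tnnc2 have 60 h only loops alone (the 550 kb loop of Acta1 has a neighbour of another label within 1 anchor width), while Myl4 and Actc1 have 1 GM only loop each and Myh1 has 2.

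Other muscle genes stood at anchors of these loops too. Tnnt3, the fast troponin T, had 3.93, 3.15 and 3.42 CPM in the GM libraries and 183, 152 and 182 CPM at 60 h (5.63 ± 0.084, adjusted p = 8.18e-22), and Lmod3, which nucleates thin filaments, had 0.556, 0.886 and 1.13 CPM in the GM libraries and 34.0, 33.4 and 35.3 CPM at 60 h (5.30 ± 0.11). For both, each gene end lay in an anchor and which end holds the start site was not known. The same holds for Lrp4, Tcf4, Boc, Dcn and Rad21, named below. Klhl40, which keeps nebulin and Lmod3 from degradation, had 0.630, 0.458 and 0.897 CPM in the GM libraries and 27.6, 26.4 and 28.7 CPM at 60 h (5.38 ± 0.13, adjusted p = 7.85e-19). Its 825 kb loop from chr9:121775001-121800000 to chr9:120950001-120975000 lay inside a TAD in GM and in none at 60 h. Trim63, the ubiquitin ligase MuRF1, rose by a log2 fold change of 4.17, and its 500 kb loop from chr4:134300001-134325000 lay inside a TAD at 60 h and in none in GM. Myl1 (4.31) was joined over 1650 kb, Csrp3 (5.44), a Z-disc LIM protein, over 525 kb, and Tnnt1 (4.82), the slow troponin T, over 1275 kb from an anchor that also holds Tnni3, the cardiac troponin I (1.97). GM only loops also ended at the anchors of Trim63, Csrp3 and Tnnt1. A pair of members had few reads. Myl2, the slow regulatory light chain, had no read in GM and 22, 9 and 14 reads at 60 h, at least 17.1-fold higher with a floor of 3 reads over the GM group. Mybpc1, the slow myosin-binding protein C, had 0, 1 and 2 reads in GM and 52, 48 and 51 at 60 h.

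**Figure D5:**
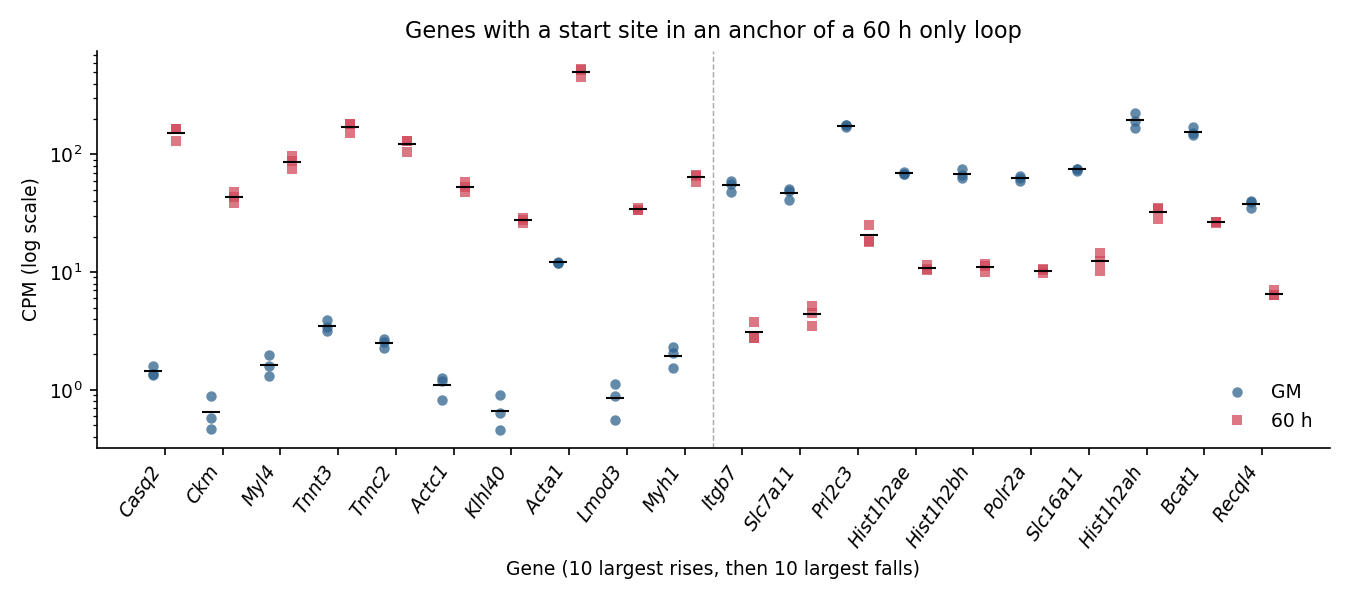
CPM on a log scale for each GM library (blue circles) and each 60 h library (red squares), with group means as bars, of the 10 genes that rose most and the 10 that fell most among genes in anchors of 60 h only loops with a mean log2 CPM of 3 or more. The genes were chosen by size of change, so the groups lie apart by that choice; Acta1, for example, was at 11.9 to 12.3 CPM in GM and 455 to 535 CPM at 60 h.

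Genes that store and release calcium behaved alike. Of 9 at anchors, 8 were higher and 1, Fkbp1a, lower, and of the 23 tested in the list 22 were higher. Casq2, a calsequestrin that binds calcium in the sarcoplasmic reticulum, showed the largest rise among the well-measured genes at anchors, with 1.59, 1.34 and 1.36 CPM in the GM libraries and 165, 129 and 164 CPM at 60 h (6.74 ± 0.12, adjusted p = 6.58e-21). Its anchor, chr3:102075001-102100000, held 3 of the 60 h only peaks and no GM only peak, and its 550 kb loop ended at chr3:101525001-101550000, which holds no start site. A GM only loop and 2 loops of both also ended at Casq2, and the 60 h only loop had a neighbour of another label. Cacna1s, the voltage sensor of skeletal muscle, had 0.408, 0.244 and 0.465 CPM in the GM libraries and 28.7, 24.8 and 28.4 CPM at 60 h (6.20 ± 0.16, adjusted p = 2.77e-18). It was joined over 675 kb to the anchor of Shisa4 (0.66), a membrane protein gene that also rose. The Cacna1s anchor was in 1 GM only loop as well. Ryr1, the calcium release channel, rose less, with 8.90, 8.40 and 10.5 CPM in the GM libraries and 82.8, 73.4 and 80.0 CPM at 60 h (3.09 ± 0.11, adjusted p = 5.28e-16). Mrln, the micropeptide myoregulin that restrains the calcium pump, had 1.33, 1.34 and 1.23 CPM in the GM libraries and 10.1, 8.75 and 8.77 CPM at 60 h (2.81 ± 0.15), and Cacnb1, the beta subunit of the channel, had a log2 fold change of 1.57 ± 0.091. The receptor genes of the nerve-muscle junction at anchors, Chrna1 (1.44 ± 0.042) and Chrnb1 (1.39 ± 0.049), rose with Lrp4 (2.19 ± 0.056), the agrin receptor, as did all 9 tested genes of that list.

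In muscle metabolism, 8 of 12 genes at anchors were higher and none lower, with a median log2 fold change of 0.61, beside 16 higher and 1 lower of the 21 tested in the list (median 0.88). For this and the lists below, 33.1% of all tested genes were higher and 32.2% lower, with a median of 0.01. Ckm, the muscle creatine kinase, had 0.890, 0.581 and 0.465 CPM in the GM libraries and 43.6, 38.9 and 48.2 CPM at 60 h (6.09 ± 0.16, adjusted p = 2.08e-18). Its one loop at the start site, chr7:19400001-19425000 to chr7:19575001-19600000, spanned 175 kb and ended at Zfp296, and no GM only loop or loop of both ended at that anchor, although a loop of another label lay within 1 anchor width at both ends. Fabp3, a fatty acid carrier, had a log2 fold change of 1.68 ± 0.100 and Cox6a2, the muscle form of a cytochrome oxidase subunit, 1.30 ± 0.23. Slc2a4, the insulin-responsive glucose transporter, stood under 0.5 CPM in all 6 libraries (1.21 ± 0.43, adjusted p = 0.0179), and Cox7a1 had 0.66 ± 0.26 (adjusted p = 0.0274). Neither was called in some fits without 1 library (Slc2a4 adjusted p = 0.0851 without GM replicate 3, Cox7a1 0.13 without GM replicate 2 and 0.153 without 60 h replicate 1), and Cox7a1 was not called by DESeq2 (0.0775) or with no count filter (adjusted p = 0.0714).

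Myogenic regulators mostly rose. Of 9 at anchors, 7 were higher, 1 was lower and 1, Id4, was not called, while of the 27 tested in the list 16 were higher and 6 lower. Mef2c had 3.82, 4.09 and 3.59 CPM in the GM libraries and 19.7, 17.2 and 17.6 CPM at 60 h (2.24 ± 0.11, adjusted p = 1.18e-13) and Mef2a, its more broadly made relative, had 77.2, 78.2 and 83.0 CPM in the GM libraries and 253, 239.8 and 253 CPM at 60 h (1.65 ± 0.058). Id2, which holds E-proteins away from the MyoD family, fell, with 27.1, 25.7 and 31.6 CPM in the GM libraries and 7.36, 8.29 and 8.25 CPM at 60 h (-1.82 ± 0.11, adjusted p = 2.45e-12). The Id2 anchor was in 5 of the 60 h only loops, 4 GM only loops and 2 of both. Hdac9 (1.27 ± 0.063), a repressor of MEF2, and Tcf4 (1.15 ± 0.052), an E-protein, rose. Of 19 tested fusion genes 12 were higher and 6 lower, and of the 4 at anchors Cdh15 (1.24 ± 0.072), the muscle cadherin, and Cd81 (0.66 ± 0.047), a tetraspanin, rose, and Boc (-0.50 ± 0.14) and Dock1 (-0.25 ± 0.069) fell. Of 7 genes of the dystrophin complex and cytoskeleton at anchors, 6 were higher and none lower, beside 19 and 2 of the 23 tested in the list, led by Sgca (2.10 ± 0.11) and Sgcb (1.12 ± 0.050), both sarcoglycans of the muscle membrane.

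Matrix and secreted genes mostly rose: 17 of 25 at anchors were higher and 6 lower, with a median of 0.83, beside 28 higher and 9 lower of the 40 tested in the list, with a median of 0.59. Igf1, the growth factor, had 0.667, 0.886 and 1.16 CPM in the GM libraries and 14.0, 13.6 and 12.3 CPM at 60 h (3.86 ± 0.14, adjusted p = 8.57e-16), and Fst, the myostatin antagonist follistatin, had 2.52, 1.68 and 2.23 CPM in the GM libraries and 25.3, 25.6 and 28.1 CPM at 60 h (3.63 ± 0.11). Postn (3.41 ± 0.090), Dcn (3.40 ± 0.074), both matrix proteins, Igf2 (2.45 ± 0.11) and the receptor Fgfr4 (1.85 ± 0.14) also rose.

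Cell cycle genes at anchors mostly fell, 16 of 21 lower and 5 higher, with a median log2 fold change of -1.11, as did the whole list, with 34 of 44 tested lower, 10 higher and a median of -0.93. Cdc20, which activates the anaphase-promoting complex, had 127, 123 and 125 CPM in the GM libraries and 24.8, 27.6 and 25.4 CPM at 60 h (-2.27 ± 0.064, adjusted p = 9.02e-18). Cdt1 (-1.97 ± 0.099), which licenses replication origins, Ccnb2 (-1.86 ± 0.050), a mitotic cyclin, and Aurka (-1.83 ± 0.059), a spindle kinase, fell too. Myc, the growth regulator, had 13.9, 13.5 and 10.7 CPM in the GM libraries and 2.70, 3.74 and 3.65 CPM at 60 h (-1.91 ± 0.13), and its anchor was in 5 of the 60 h only loops, 5 GM only loops and 7 of both. Against the list, Cdkn1c, the inhibitor p57, rose (1.54 ± 0.28, adjusted p = 4.70e-05). The direction of a gene therefore differed among genes whose anchors were in the same kind of loop.

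The largest falls at anchors belonged to genes of several kinds. Itgb7, a beta integrin, had 55.9, 59.3 and 48.2 CPM in the GM libraries and 2.74, 3.78 and 2.76 CPM at 60 h (-4.14 ± 0.14, adjusted p = 1.23e-16). Its 60 h only loop spanned 1525 kb, from chr15:102225001-102250000 to chr15:100700001-100725000, where the mucin-type glycosyltransferase gene Galnt6 starts and rose (1.93). This loop and that of Slc7a11 had a neighbour of another label. GM only loops also ended at the anchors of these genes, 2 at Itgb7 and 1 at Slc7a11. Slc7a11, the cystine transporter, had 48.5, 50.4 and 41.2 CPM in the GM libraries and 5.11, 3.48 and 4.50 CPM at 60 h (-3.42 ± 0.11, adjusted p = 1.70e-16). It was joined over 725 kb to chr3:51150001-51175000, an anchor with 3 of the GM only peaks, no 60 h only peak and no start site. Bcat1, a branched-chain aminotransferase, had 151, 169.9 and 145 CPM in the GM libraries and 26.0, 26.8 and 26.6 CPM at 60 h (-2.55 ± 0.054), and Recql4, a DNA helicase, had 40.6, 39.4 and 34.9 CPM in the GM libraries and 6.98, 6.34 and 6.37 CPM at 60 h (-2.55 ± 0.081). Slc16a11, a monocarboxylate transporter, fell by 2.60 ± 0.093 (SE) on the log2 scale. Its anchor was in 3 of the 60 h only loops, 4 GM only loops and 2 of both. Prl2c3, a proliferin, fell by 3.10 ± 0.087, although reads of this family may be split between near-identical copies.

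Polr2a, the largest subunit of RNA polymerase II, had 65.6, 63.6 and 58.9 CPM in the GM libraries and 10.7, 10.4 and 9.89 CPM at 60 h (-2.61 ± 0.30, adjusted p = 1.41e-07). Its mean over 3 libraries was 15.8 CPM at 12 h and 61.2 CPM at 96 h, so at 96 h it stood near the GM level. Without replicate 3 of 24 h, where it stood at 47.2 CPM, the log2 fold change at 60 h was -2.63 (adjusted p = 2.62e-15). Its anchor was in 1 of the 60 h only loops and in no other loop.

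The replication-dependent histone genes of the chromosome 13 cluster supplied 3 of the 10 largest falls, Hist1h2ae (-2.67 ± 0.10), Hist1h2bh (-2.63 ± 0.11) and Hist1h2ah (-2.58 ± 0.16). Reads of these genes may be split between near-identical copies. The genes were therefore looked at together, after these values were seen: 36 tested Hist1 genes had a start site in an anchor of a 60 h only loop and all 36 were lower, with a median of -2.14, and the 15 in no such anchor were all lower too, with a median of -2.22. Anchors with Hist1 start sites were joined to each other by 4 of the 60 h only loops, of 200 to 1775 kb. One joined chr13:22025001-22050000 (Hist1h4i, Hist1h2bk, Hist1h2bj, Hist1h2ag and Hist1h2ah) to chr13:21700001-21725000 (Hist1h2ai, Hist1h2aj, Hist1h2bl, Hist1h2bm and Hist1h3h), 325 kb away, and another joined the first of these to chr13:23675001-23700000, 1650 kb away. GM only loops (6) and loops of both (3) joined such anchors as well, and each of the 4 had a neighbour of another label.

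Genes facing each other across a 60 h only loop changed together about as often as across GM only loops. Start sites of tested genes stood at both ends of 1173 loops (4.88%), which gave 2295 gene pairs. Both genes were higher in 10.5% of pairs, both lower in 17.3% and opposite in 21.6%. For GM only loops the shares were 11.1%, 16.7% and 22.0%, and for loops of both labels 7.87%, 21.3% and 21.3%. Without pairs of Hist1 genes, the 60 h only loops gave 10.9%, 14.4% and 22.3% the GM only loops 11.4%, 15.0% and 22.5%, and the loops of both 8.43%, 15.7% and 22.9%. Pairs share genes and anchors, so they are not independent. Only 11 pairs (0.48%) had both genes at least 2-fold higher, beside 0.61% for GM only loops and 0.42% for loops of both. The same shares over tested gene pairs in no loop were not computed. Among them, Nrap (2.44), which helps build myofibrils, faced Ablim1 (1.51), an actin-binding protein, and Col6a1 (1.12), a collagen chain, faced Lss (1.41), an enzyme of sterol synthesis. Both genes were at least 2-fold lower in 83 pairs (3.62%), beside 2.67% for GM only loops and 7.72% for loops of both. Of these 83 pairs, 10 were left without pairs of Hist1 genes.

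Genes of a loop extrusion list mostly fell. The list holds cohesin, CTCF, their regulators and other factors, such as Zfp143 and Ldb1. Of its 18 tested genes, 10 were lower and 3 higher at 60 h. Of the 10 at anchors of 60 h only loops, 7 were lower and none higher, with a median of -0.30, and whether 3 more of the list lie at such anchors was not settled, Stag2 and Esco2 among them. Rad21, the cohesin subunit cut when sister chromatids part, had 186, 183 and 186 CPM in the GM libraries and 101, 99.0 and 96.8 CPM at 60 h (-0.90 ± 0.048, adjusted p = 4.62e-13). Cdca5, which holds cohesin on replicated DNA, had 21.8, 25.8 and 24.4 CPM in the GM libraries and 9.85, 11.7 and 10.2 CPM at 60 h (-1.18 ± 0.086). The ring subunits Smc1a (-0.37 ± 0.048) and Smc3 (-0.25 ± 0.048) fell by less, as did the loader Nipbl (-0.38 ± 0.086), which is not at such an anchor. Ctcf itself had 59.1, 59.2 and 59.7 CPM in the GM libraries and 46.1, 47.8 and 50.1 CPM at 60 h (-0.31 ± 0.060, adjusted p = 1.36e-04), and its own start site was in no 60 h only loop. In the rest of the list, Esco2 (-0.63 ± 0.071), a cohesin acetyltransferase of S phase, fell. Its relative Esco1 (0.55 ± 0.064), Stag2 (0.28 ± 0.052), a cohesin subunit, and Mau2 (0.15 ± 0.054, adjusted p = 0.0164) rose, while Wapl, which releases cohesin, had a log2 fold change of 0.03 ± 0.046 and was not called (adjusted p = 0.552). Mau2 and Stag1 (-0.12 ± 0.047) lost their call in some fits without 1 library, with adjusted p up to 0.17 for Mau2 without GM replicate 3 and 0.118 for Stag1 without 60 h replicate 3. Mau2 was not called with no count filter either (adjusted p = 0.0559).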

How the data were processed

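Loops, peaks, domains and counts were used as the authors deposited them. The deposited RNA-seq values are whole-number counts per gene, not scaled between libraries, and STAR, RSEM 1.3.0 and build mm10 are among the names in the submitters' processing notes. The deposited ATAC-seq lists give each broad peak's fold over local background (a ratio) and its −log10 q; Bowtie2 2.2.6 and MACS2 2.2.7 are named in the same notes. The deposited domain boundaries on 40 kb bins carry a score of unstated scale, which was not used, and HiC-Pro 2.9.0 is named. How loops were called, the read filter of 50 in the loop table's name and any pooling of libraries are each not given in the sources used here.

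All 18 RNA libraries (24154680 to 36405121 counts, of which at least 99.95% fell in kept genes) entered 1 fit (edgeR 4.0.16, R 4.3.3) with TMM factors, filterByExpr, a quasi-likelihood test with group as the sole factor, adjusted over 15303 genes and called at an adjusted p under 0.05. CPM scale counts to an effective library size of 1000000; SE is the log2 fold change over the square root of F. On simulated counts for 60 h against GM over 15303 genes, 92.5% of 1.5-fold, 94.0% of 2-fold and 100% of 4-fold changes were called, with 14 false calls. The simulation gave all genes 1 common spread (biological coefficient of variation 0.0621). It changed only 67, 67 and 66 genes at these folds, none of them among the least abundant. In the data 5058 genes were called higher and 4930 lower, and spread differed by gene, so these rates need not hold there. Counts of replicates differed beyond sampling noise in each pair (chi-square over its degrees of freedom, 5.06 to 53.2), so each library counted once.

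Start sites came from RefSeq (GRCm38.p6): 33553 genes matched by symbol and 1002 by synonym, of 49089. Where no start site was given, a gene counted only if both its ends agreed; 818 tested genes did not and were left out, as were 1350 that were not placed. Members, lists and named genes were chosen with earlier results of these data known. Named were at most 6 genes per list by size of change, the 10 largest rises and 10 largest falls at anchors whose mean log2 CPM was 3 or more, the loops at such genes, the longest and shortest loops, the anchors in most loops, and the loop extrusion genes. Promoters and Hist1 genes were chosen after their values were seen. DESeq2 1.42.0, other scalings, filters, overlaps and left-out libraries served as alternatives. Motif searches in peaks and CTCF orientation, which need a genome, were not made, and promoter sequences are shown in their place. Some genes at the same anchors are named beside these.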

Additional observations from a re-analysis of the deposited data

How the results depend on the processing

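Limits: the loop table has 1 label per loop and no depth or replicate, so how many labels would change with depth cannot be told, and 36.5% of the loops had a loop of another label 1 bin away. Of 206 values of counts and shares under other settings, 191 stayed within 1.5 times the count or within the counting interval of the share, and 15 did not. Counts of genes at anchors at 60 h ranged from 1968 to 2146 higher and 2042 to 2224 lower when each GM or 60 h library was left out, and from 4445 to 4828 and 4619 to 4999 over all genes. At 12 h the ranges at anchors were 1084 to 1288 and 834 to 1176, at 24 h 1848 to 1981 and 1902 to 2080, at 48 h 1926 to 2115 and 2091 to 2222, and at 96 h 2157 to 2342 and 2184 to 2254. DESeq2 called 2098 higher and 2132 lower at anchors at 60 h. In settings chosen after seeing the data, 2170 and 2290 were called without 24 h replicate 3, 2152 and 2282 without 12 h replicate 1, and 2176 and 2311 without 12 h replicate 3.

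With anchors widened by 1 anchor width, 10767 tested genes had a start site in them in place of 6269. With peaks of a −log10 q of at least 5, the anchors with peaks of 60 h only, GM only and both fell to 19.5%, 15.2% and 73.4%, and loops with a 60 h only peak in either anchor to 35.3%. With sharing set at 50% coverage these were 49.2%, 40.6%, 75.4% and 73.2%. Without loops that have a neighbour of another label, GM only peaks lay in 34.4% and shared peaks in 77.2% of anchors, 63.2% of loops had a 60 h only peak in either anchor, and 50.8% lay inside 1 TAD of 60 h. Boundaries within 1 domain bin took in 14.4% of anchors, and by anchor midpoints 55.3% of loops lay inside 1 TAD. The stricter peak cut took 60 h only peaks from 40.7% to 19.5% of anchors, and shared peaks from 77.9% to 73.4%. The share of anchors with a 60 h only peak thus depends strongly on that cut. Why each of these values moved was not tested.

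Of 1213 values for named genes, 1191 kept direction and call. Reversed were genes that were not called: with each GM or 60 h library left out, log2 fold changes ran from -0.0064 to 0.056 for Wapl, -0.14 to 0.043 for Hdac8, -0.036 to 0.0099 for Zfp143 and -0.027 to 0.077 for Ldb1, and Zfp143 was at 0.00013 with 6 libraries. Replicate numbers did not pair the samples (correlations of same-numbered deviations -0.0005, -0.059 and 0.080, and not every sample correlated best with its own number). With the replicate block, 2227 genes at anchors were higher and 2157 lower. Loops of at most 2 Mb are all the loops. Searches for CTCF and other motifs in peaks were not run, as no genome was at hand.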
